A study of Mus musculus with 12 samples.

Results

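In mouse embryonic stem cells (mESCs), 20 genes had a different estimated mean transcript length with hydroxytamoxifen (OHT) than with its solvent, ethanol (EtOH). The rule that chose them required this on both days sampled. These 20 genes were selected on the effective length that RSEM reports for each gene, which is the mean length of the gene's transcripts weighted by their abundance, less a part set by the fragment size. A gene was chosen where the log2 ratio of the group means, OHT over EtOH, was at least 0.15 in size with the same sign on Day 2 and Day 4. In addition, the 3 OHT libraries and the 3 EtOH libraries did not overlap on either day, and no library had an expected count under 100. Of 54146 genes in the files, 10944 met the count minimum and had a length above 0, and 20 of those met the whole rule. In 12 of the 20 the mean transcript was shorter with OHT, and in 8 it was longer. As the OHT contrast chose the genes, its values are given for them as a description, without a test.

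The cells were *Prdm10*F/F; *ROSA26*-CreERT2 mESCs of the C57BL/6 strain, which have both *Prdm10* alleles floxed at exon 5 and express an OHT-inducible Cre recombinase (CreERT2) from the *ROSA26* locus. Cells of all 4 groups carried the floxed alleles and the recombinase. They were exposed for 24 h to 50 nM OHT, or to EtOH, and were harvested on Day 2 or Day 4, with 3 libraries per group (Day 2 EtOH, Day 2 OHT, Day 4 EtOH and Day 4 OHT). No OHT-treated cells without floxed alleles were among these libraries, so that the exposure and the deletion cannot be told apart. The cells were grown on gelatin in serum with leukaemia inhibitory factor after derivation on feeder fibroblasts. The study describes its experiments in general as independent biological repeats. The labels do not describe the cultures behind the 3 libraries of a group, and the p-values measure the spread between these libraries.

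A mouse gene usually gives rise to several transcripts, through alternative promoters, alternative splicing and alternative polyadenylation sites. Some of these keep an intron or carry an early stop codon, and the latter are cleared by nonsense-mediated decay, so that a change of length can alter the protein made without a change in the number of RNA molecules. Since longer molecules yield more fragments, a gene's read count moves with its mean transcript length as well as with the number of its molecules. PRDM10, the product of the targeted gene, is a zinc finger protein that binds DNA at promoters.

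Total expected counts lay between 35017667 and 41409992 per library, and the summed TPM (transcript abundance per length, scaled to a fixed library total) of 10 pluripotent stem cell markers between 2420 and 2920. The summed TPM of 10 fibroblast feeder markers ranged from 4.81 to 5.8 in Day 2 EtOH, 5.08 to 5.73 in Day 2 OHT, 4.44 to 5.04 in Day 4 EtOH and 3.52 to 3.96 in Day 4 OHT libraries, and 8 of the 10 stayed below 1 TPM in every library. Primitive endoderm markers (8 genes) summed to between 6.17 and 9.31 TPM, 2-cell-like markers (7 genes) to between 0.37 and 1.84 TPM, and germ layer markers (12 genes) to between 12.5 and 17.7 TPM. Mitochondrial transcripts took 1.322% to 1.396% of the counts in Day 4 OHT libraries and 1.731% to 1.982% in all others. Over all genes compared, the median log2 length ratio was 0.00055 on Day 2 and 0.0014 on Day 4. The part of these values in the length shifts was not tested.

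*Prdm10* itself lay just outside the rule. Its effective length was 4256, 4437 and 4242 bases in the Day 2 EtOH libraries and 4768, 4737 and 4817 bases in the Day 2 OHT libraries. On Day 4 it was 4416, 4339 and 4486 bases with EtOH and 4960, 4888 and 4862 bases with OHT. The OHT libraries were higher on both days, with log2 ratios of 0.147 and 0.152, and the first of these missed the threshold. The normalised count of *Prdm10* (the count scaled for library size) was higher with OHT too, at 2161 ± 77.7 against 796 ± 32.8 (SD, n = 3) on Day 2 and 2027 ± 69.7 against 877 ± 46.6 (SD, n = 3) on Day 4. A count over the whole gene includes exons outside the floxed one and is therefore no check of the deletion.

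Sequence around the starts of these genes is shown because 8 of the 20 were on the study's list of 633 genes with a PRDM10 chromatin immunoprecipitation (ChIP-seq) peak, whereas 386 of all 10944 genes compared were on it. In other words, 40.0% of the shifted genes and 3.53% of the genes compared were bound. Read the other way, 2.07% of the bound genes and 0.114% of the 10558 unbound genes met the rule. The bound genes were *Oxr1*, *Raly*, *Cwc27*, *Cops5*, *Eed* and *Paxip1* among those with shorter transcripts and *Cdipt* and *Mrps11* among those with longer ones. The pattern used as the site in the search was TGGT, any 5 bases, then CC. The 2 forms of the study's binding probe differ at 8 bases, some of them among the 5 taken as any base. The binding probe and its mutated form are given first, with the stretch covered by this pattern in capitals.
wild-type probe: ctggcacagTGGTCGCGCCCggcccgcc
mutated probe: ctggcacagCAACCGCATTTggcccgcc
The site was searched on both strands in RefSeq promoter windows (GRCm38.p6, 250 bases before to 50 after a start). Such windows were at hand for 16 of the 20 genes. Of the 32851 windows of all genes, 13.8% held a match. At least 1 window matched for 1395 of the 8381 genes compared that had one (16.6%), for 127 of the 299 bound ones (42.5%), for 3 of the 5 bound genes with shifted length and for 1 of the 11 unbound ones. The matches are printed 5′ to 3′ on the strand of the gene with the site in capitals. In *Raly* the site read along the gene's strand, and in *Mrps11* and *Cwc27* it read on the opposite strand.
*Raly*, chr2:154790946-154791036, plus strand: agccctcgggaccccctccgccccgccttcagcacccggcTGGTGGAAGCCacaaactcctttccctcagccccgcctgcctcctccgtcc
*Mrps11*, chr7:78783123-78783151, plus strand: ttaccgagtGGAATGAACCAttccctttg
*Cwc27*, chr13:104817121-104817149, minus strand: agcacacgcGGTCGGAACCAtttcggccc
The *Raly* match began 124 bases before the RefSeq start and the *Cwc27* match 187 bases before it, while the *Mrps11* match began at base 2 of the transcript. In the GENCODE annotation, however, the *Cwc27* match overlaps an exon of *Cwc27* and so is not upstream of every annotated start. *Plekhm3*, which was not on the bound list, held 2 matches in its window, 1 on each strand, and the one on the gene's strand lay 154 bases from the start.
*Plekhm3*, chr1:64956939-64957029, minus strand: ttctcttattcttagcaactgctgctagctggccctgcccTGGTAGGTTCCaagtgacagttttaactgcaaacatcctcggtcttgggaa
The *Prdm10* window held 1 match as well, on the opposite strand and from base 11 of the transcript.
*Prdm10*, chr9:31280550-31280578, plus strand: ctctgcggcGGGAAGAACCAcctggaggc
A match in these windows is a description of the letters and not a mapped binding site.

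Shifts of at least 0.15 without overlap between the treatments were seen for 187 genes on Day 2 (1.71% of the genes compared) and for 250 genes on Day 4 (2.28%). Both days shared 28 of these genes, of which the 20 described here had the same sign and 8 had opposite signs. Among the 1462 genes with a single annotated transcript, whose length can move only with fragment size, the largest absolute log2 ratio was 0.062 on Day 2 and 0.094 on Day 4. For the 9482 genes with more than 1 transcript the median absolute ratio was 0.021 and 0.022, and the 95th percentile 0.13 and 0.15. The shift was the larger one on Day 4 in 12 of the 20 genes and on Day 2 in the other 8. Just inside the threshold lay *Plekhm3* (log2 ratios of -0.163 and -0.155), *Kif23* (-0.157 and -0.184) and *Lrp8os2* (0.159 and 0.217). The nearest genes outside were *Hyal2* (-0.169 and -0.149), *Prdm10* and *Zrsr2* (0.146 and 0.159). In 11 of the 20 genes, 7 of them bound, the rule was still met whichever of the 12 libraries was left out. *Plekhm3* missed it in 6 of the 12 omissions. Without 1 library the log2 ratio moved by over 1.5 times in *Lhfpl2* (Day 2, from -0.182 to -0.115 without replicate 2 of OHT), *Kif23* (Day 2, from -0.157 to -0.093 without replicate 1 of EtOH) and *Dop1b* (Day 4, from 0.211 to 0.126 without replicate 2 of EtOH). In *Lrp8os2* it went from 0.159 to 0.101 on Day 2 without replicate 2 of OHT and from 0.217 to 0.143 on Day 4 without replicate 2 of EtOH. *Wdr45*, *Paxip1*, *Zfp706* and *Platr21* missed the rule without 1 or 2 of the single libraries, with smaller moves.

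**Figure D1:**
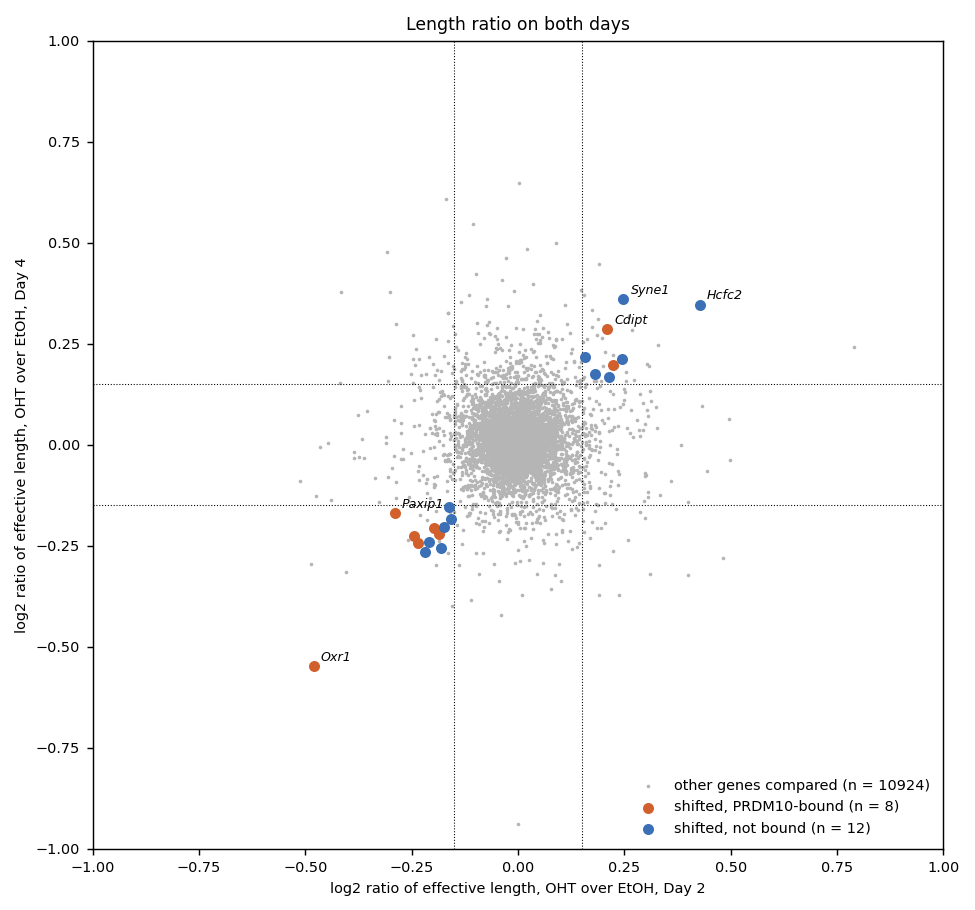
Log2 ratio of effective length, OHT over EtOH, on Day 2 (horizontal axis) and Day 4 (vertical axis), with 1 point per gene compared and dotted lines at 0.15 and -0.15. The 8 bound (orange) and 12 unbound (blue) selected genes lie in the upper right and lower left corners set by the rule, with *Oxr1* the farthest out at the lower left.

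The gene with the largest shortening among the 20 was *Oxr1* (oxidation resistance 1, known for protecting cells from oxidative damage). In the Day 2 EtOH libraries its effective length was 3177, 3187 and 3256 bases, and in the Day 2 OHT libraries it was 2281, 2200 and 2412 bases. On Day 4 the lengths were 3149, 3097 and 3099 bases with EtOH and 2269, 1973 and 2149 bases with OHT. Every OHT library lay at least 765 bases below every EtOH library of its day. The group mean differed by -28.3% on Day 2 and by -31.6% on Day 4, as log2 ratios of -0.48 and -0.55. Its normalised count was also lower with OHT, at 1288 ± 26.3 against 2677 ± 29.8 (SD, n = 3) on Day 2 and 1080 ± 44.4 against 3023 ± 34.2 (SD, n = 3) on Day 4. The gene spans chr15:41447482-41861048 on the plus strand (GRCm38) with 16 annotated transcripts between 359 and 4599 bases long, whose starts are spread over 402742 bases. Only 1 of the 16, of 4346 bases and 14 exons, starts at the bound region (within 250 bases of the ChIP-seq peak).

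Among the RNA-binding proteins, *Raly* (an RNA-binding protein of the hnRNP family) had effective lengths of 1342, 1318 and 1334 bases in Day 2 EtOH and of 1126, 1131 and 1135 bases in Day 2 OHT libraries. On Day 4 they were 1336, 1318 and 1337 bases with EtOH and 1098, 1122 and 1150 bases with OHT. The OHT libraries were lower by at least 168 bases on both days, with a log2 ratio of -0.24 each time. Its normalised count went from 7676 ± 201 to 5148 ± 71.3 on Day 2 and from 7797 ± 164 to 5004 ± 62.2 on Day 4 (SD, n = 3). At chr2:154791096-154867261 (plus strand), 9 of its 10 transcripts start at the bound region, and they are 402 to 1802 bases long, so that the longest and most of the short forms share a start. The agouti gene *a*, on the same strand, overlaps this locus and has a start near the same peak.

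*Cwc27* (a cyclophilin-type protein associated with the spliceosome) had shorter transcripts but more reads. Its effective length was 1852, 1749 and 1819 bases in Day 2 EtOH libraries against 1403, 1563 and 1606 bases in Day 2 OHT libraries. On Day 4 the values were 1816, 1757 and 1792 bases against 1577, 1537 and 1475 bases. The OHT libraries were all lower, with log2 ratios of -0.25 and -0.23. In contrast, the normalised count was higher in every OHT library, at 2020 ± 81.6 against 1394 ± 43.5 on Day 2 and 2412 ± 38.8 against 1347 ± 54.9 on Day 4 (SD, n = 3). Of the 4 transcripts at chr13:104631140-104817142 (minus strand), those of 2071 and 353 bases start at the bound region, whereas those of 588 and 451 bases start elsewhere.

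Among chromatin regulators, *Eed* (a core subunit of Polycomb repressive complex 2, which methylates histone H3 at lysine 27) had lengths of 1342, 1383 and 1290 bases with EtOH and 1156, 1178 and 1192 bases with OHT on Day 2. The Day 4 lengths were 1301, 1299 and 1289 bases with EtOH and 1129, 1113 and 1091 bases with OHT. All OHT libraries were lower, by a log2 ratio of -0.19 on Day 2 and -0.22 on Day 4. The 2 transcripts that start at the bound region, of 2067 and 1111 bases, are the longest of its 10, and 6 of the other 8 are annotated as retaining an intron. The normalised count was lower with OHT on Day 2, at 5026 ± 91.9 against 5617 ± 54.3 (SD, n = 3). On Day 4 the counts were 6803 ± 81.1 and 7312 ± 505 (SD, n = 3), and the lowest EtOH library (6845) lay below the highest OHT library (6859). The gene lies at chr7:89954654-89980983 on the minus strand.

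*Paxip1* (PTIP, a BRCT domain protein of the histone methyltransferase complexes of KMT2C and KMT2D) had the largest shortening of the 20 on Day 2 after *Oxr1*. There its lengths were 3368, 3040 and 3131 bases with EtOH and 2724, 2499 and 2580 bases with OHT. By Day 4 they were 3361, 3148 and 3111 bases with EtOH and 2989, 2740 and 2826 bases with OHT. The groups did not overlap on either day, and the log2 ratio was -0.29 on Day 2 and -0.17 on Day 4. Without replicate 1 of Day 4 EtOH or replicate 2 of Day 4 OHT the gene no longer met the rule. The normalised count was higher with OHT on both days, at 3643 ± 153 against 2233 ± 28.7 and at 2864 ± 76 against 2137 ± 111 (SD, n = 3). Its full-length transcript of 5850 bases and 21 exons starts at the bound region together with 3 transcripts of 381 to 749 bases, and the remaining 3, of 717 to 3829 bases, all retain introns. These lie at chr5:27740080-27791691 on the minus strand.

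None of the other transcriptional regulators among the 20 was bound. *Hcfc2* (a relative of host cell factor 1) had the largest lengthening among the 20 on Day 2 and, after *Syne1*, on Day 4, with log2 ratios of 0.43 and 0.35. It was also among the least even between libraries. Its lengths were 1802, 1838 and 2369 bases with EtOH and 2383, 3072 and 2628 bases with OHT on Day 2. On Day 4 they were 2335, 2014 and 1969 bases with EtOH and 2381, 3078 and 2577 bases with OHT. The highest EtOH library was only 14 bases below the lowest OHT library on Day 2 and 46 bases below it on Day 4. *Zfp672* and *Zfp706* (zinc finger proteins) moved in opposite directions. The mean of *Zfp672* went from 1571 to 1349 bases on Day 2 and from 1992 to 1657 bases on Day 4, with a gap of 12 bases between the treatments on Day 2 and of 220 bases on Day 4. That of *Zfp706* went from 1263 ± 49.3 to 1432 ± 36.9 bases on Day 2 and from 1262 ± 40.1 to 1425 ± 18.1 bases on Day 4 (SD, n = 3). Its transcripts are 1 of 4417 bases and 4 of 447 to 517 bases.

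*Cops5* (the catalytic subunit of the COP9 signalosome, which removes NEDD8 from cullins) had lengths of 1452, 1424 and 1429 bases with EtOH and 1244, 1216 and 1294 bases with OHT on Day 2. On Day 4, EtOH libraries had 1470, 1477 and 1460 bases and OHT libraries 1284, 1268 and 1267 bases. The OHT libraries were at least 130 bases lower on both days, as log2 ratios of -0.20 and -0.21. The normalised count was lower as well, at 5133 ± 117 against 5830 ± 77.9 on Day 2 and 5078 ± 165 against 6096 ± 142 on Day 4 (SD, n = 3). The locus at chr1:10024601-10038168 (minus strand) has 7 transcripts, of which 6 start at the bound region and 3 retain introns, and *Cspp1* starts near the same peak on the other strand.

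Of the 2 bound genes with longer transcripts, *Cdipt* (phosphatidylinositol synthase) had far fewer reads with OHT. Its lengths were 1367, 1216 and 1373 bases with EtOH and 1481, 1488 and 1605 bases with OHT on Day 2. On Day 4 they were 1347, 1366 and 1292 bases with EtOH and 1661, 1606 and 1618 bases with OHT. The OHT libraries were all higher, with log2 ratios of 0.21 and 0.29. The normalised count was 991, 1089 and 1009 in Day 2 EtOH and 453, 413 and 471 in Day 2 OHT libraries, and 1260, 1177 and 1172 in Day 4 EtOH and 451, 396 and 388 in Day 4 OHT libraries. The ranges were far apart on both days. Of its 8 transcripts at chr7:126975914-126980501 (plus strand), 5 start at the bound region, and 3 of those, of 1833 to 1974 bases, are the longest. Of these 3, those of 1833 and 1838 bases are annotated as targets of nonsense-mediated decay, and *Cdiptos*, on the other strand, starts near the same peak.

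*Mrps11* (a protein of the small subunit of the mitochondrial ribosome) had almost the same length in all 6 OHT libraries. Its lengths were 757, 733 and 721 bases with EtOH and 862, 854 and 864 bases with OHT on Day 2, and 754, 755 and 745 bases with EtOH and 864, 864 and 855 bases with OHT on Day 4. The OHT libraries all lay at 854 to 864 bases and were at least 97 bases above the EtOH libraries of the same day, with log2 ratios of 0.22 and 0.20. The normalised count was 785 ± 7.52 against 1010 ± 25.2 on Day 2 and 787 ± 24.7 against 1106 ± 18.4 on Day 4 (SD, n = 3). All 6 transcripts at chr7:78783119-78792989 (plus strand) start at the bound region, within 252 bases of each other. The longest, of 1056 bases, codes for the protein, while 4 of the others retain introns and 1 is a target of nonsense-mediated decay. *Mrpl46*, which also encodes a mitochondrial ribosomal protein, starts near the same peak on the other strand.

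**Figure D2:**
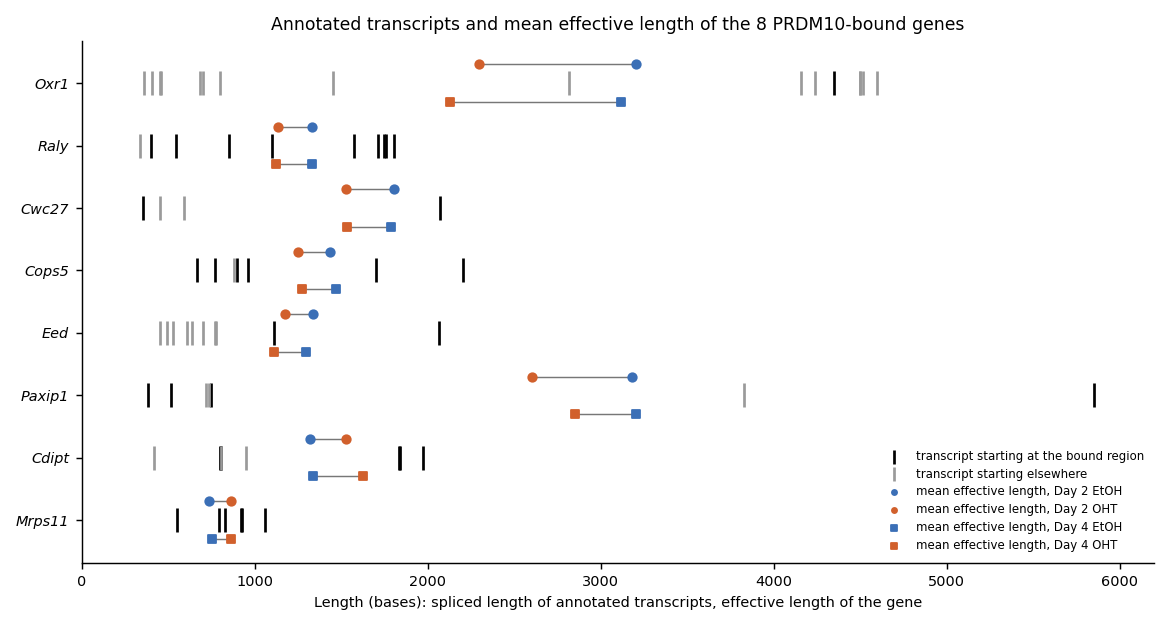
Annotated transcripts of the 8 PRDM10-bound genes by spliced length in bases (ticks, black where the transcript starts within 250 bases of the bound region) with the mean effective length of each group (circles, Day 2; squares, Day 4; blue, EtOH; orange, OHT; n = 3 each). The effective length is a mean over transcripts less a fragment size part of 154.83 to 158.86 bases; it moved to the left with OHT in 6 genes and to the right in *Cdipt* and *Mrps11*.

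**Figure D3:**
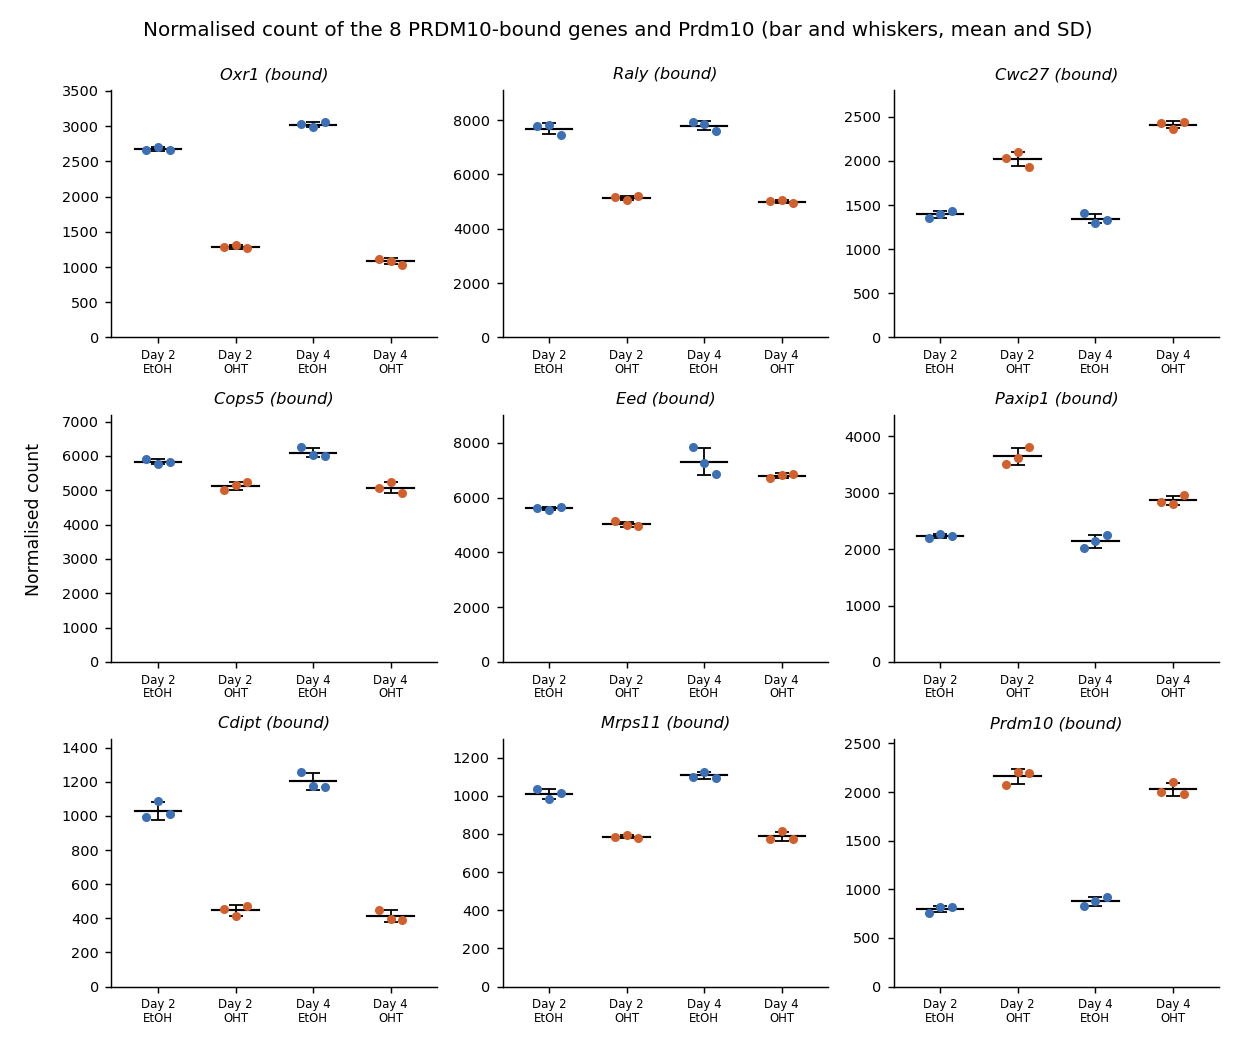
Normalised count of the 8 bound genes and *Prdm10* in each library (points; blue, EtOH; orange, OHT), with the mean and SD of 3 libraries. Only *Cwc27*, *Paxip1* and *Prdm10* were higher with OHT, and the groups overlapped for *Eed* on Day 4 alone.

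The other 6 protein-coding genes were not bound either. *Syne1* (nesprin-1, which links the nuclear envelope to the cytoskeleton) had 6463, 6346 and 6884 bases in Day 2 EtOH and 7570, 8260 and 7554 bases in Day 2 OHT libraries. On Day 4 it had 6905, 6618 and 6742 bases with EtOH and 8506, 8095 and 9400 bases with OHT. The OHT libraries were higher by at least 670 bases, with log2 ratios of 0.25 and 0.36, in a gene whose 9 annotated transcripts run from 2726 to 27908 bases. *Kif23* (a kinesin of the central spindle needed for cytokinesis) went from 2054 ± 180 to 1842 ± 27.9 bases on Day 2, with a gap of 9 bases, and from 1972 ± 79.1 to 1736 ± 67.4 bases on Day 4 (SD, n = 3). *Dop1b* (a protein of membrane traffic) went up from 2590 ± 256 to 3066 ± 116 bases and from 2163 ± 230 to 2504 ± 45.1 bases (SD, n = 3). *Wdr45* (a phosphoinositide-binding protein of autophagy) has 36 annotated transcripts, the most of the 20, and went down from 1006 to 892 bases on Day 2 and from 964 to 837 bases on Day 4, with a gap of only 7 bases on Day 2. *Plekhm3* (a pleckstrin homology domain protein) went down from 4947 to 4420 and from 5993 to 5382 bases, and the tetraspan protein gene *Lhfpl2* from 4037 to 3560 and from 3912 to 3277 bases. *Lhfpl2* had the fewest reads, with a lowest expected count of 124.

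The 3 noncoding genes had 2 to 4 annotated transcripts each. *Platr21*, a long noncoding RNA on chromosome X, has 2, of 712 and 3511 bases, and so its mean length gives the share of each directly. The longer one made up 4.48%, 5.94% and 5.73% of the molecules in Day 2 EtOH and 9.51%, 8.79% and 9.84% in Day 2 OHT libraries. On Day 4 it made up 2.94%, 4.05% and 3.6% with EtOH and 5.09%, 6.85% and 7.1% with OHT. The share was higher in every OHT library, while the minor form stayed under 10% throughout. *Snhg20*, a snoRNA host gene, went from 547 ± 18 to 474 ± 13.5 bases on Day 2 and from 604 ± 38 to 511 ± 31.6 bases on Day 4 (SD, n = 3). Its transcripts, of 459, 600 and 2153 bases, start within 19 bases of each other. *Lrp8os2*, a transcript antisense to *Lrp8*, went up from 1124 ± 7.18 to 1254 ± 102 and from 1174 ± 123 to 1364 ± 44.4 bases (SD, n = 3). It overlaps *Lrp8* on the other strand, as *Platr21* does *Trap1a* and *Cwc27* does *Srek1ip1*. On the same strand *Wdr45* overlaps *Gm45208*, and *Raly*, *Snhg20*, *Eed*, *Syne1* and *Platr21* also overlap other annotated genes. The part of such overlaps in the lengths was not tested. The libraries were stranded and made from total RNA, but whether strand was used in counting is not given in the sources used here.

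**Figure D4:**
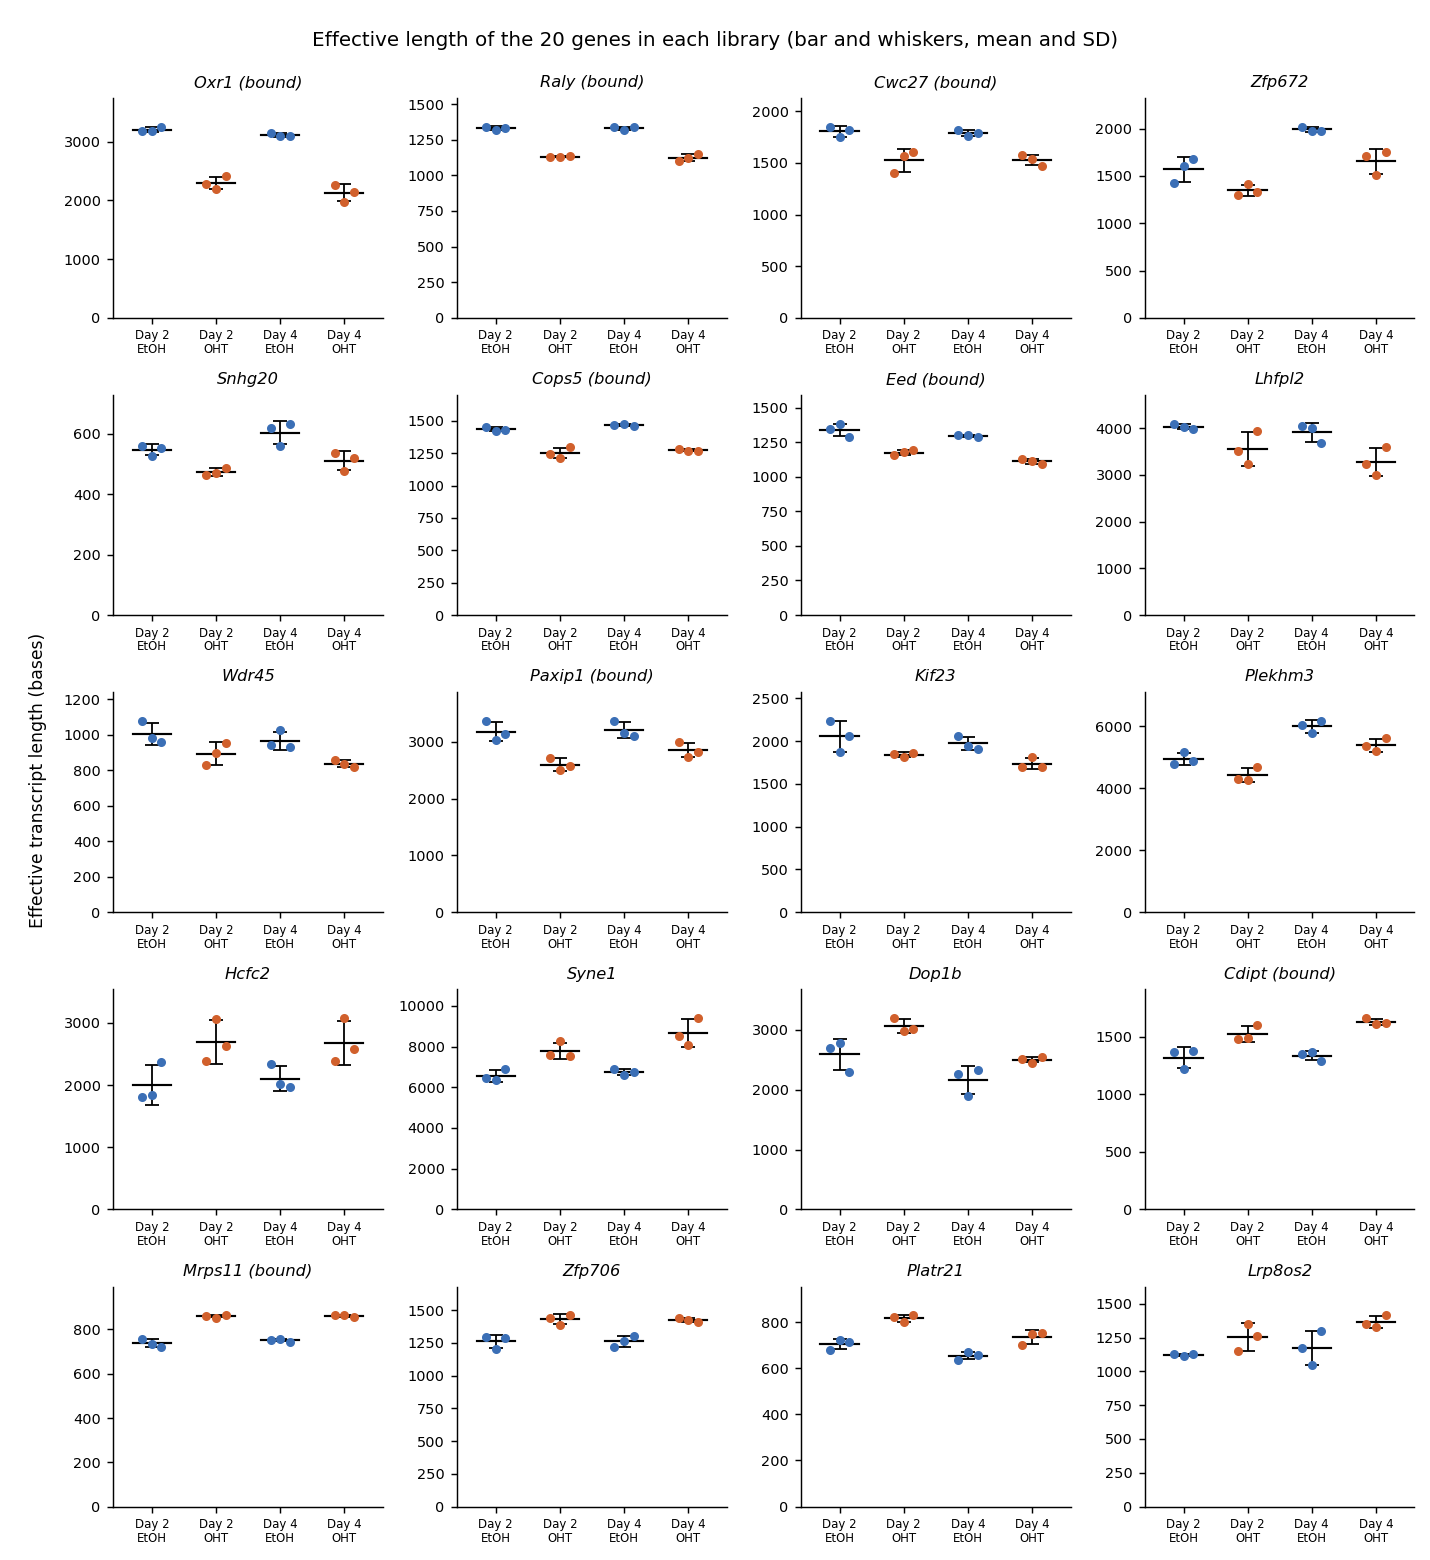
Effective length in bases of each of the 20 genes in the 12 libraries (points; blue, EtOH; orange, OHT), with the mean and SD of 3 libraries and axes starting at 0. The orange points lie below the blue ones of the same day in the first 12 panels and above them in the last 8, with narrow gaps for *Wdr45*, *Kif23* and *Hcfc2*.

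The 20 genes had a median of 7.5 annotated transcripts, compared with 5 over all genes compared and 6 over those with more than 1. At least 1 transcript with a retained intron was annotated for 14 of the 20 (70.0%), against 65.3% of the genes with more than 1 transcript and 56.6% of all genes compared. At least 1 target of nonsense-mediated decay was annotated for 9 (45.0%), against 31.7% and 27.5%. The ratio of the longest to the shortest transcript had a median of 7.9, compared with 6.78 and 5.77. Bound genes had more reads than unbound ones, with a median of the mean expected count of 2376 against 418, compared with 1176 over all genes. The posterior SD that RSEM gives to a count, which grows where reads are shared between genes, was at most 0.967% of the count in any library (in *Snhg20*), whereas 2.48% of the genes compared went above 5% in some library. Per length, *Eed*, *Raly* and *Cops5* were the most abundant, with group means of 85.9 to 138 TPM. *Lhfpl2* and *Syne1* were the least abundant, with group means of 0.767 to 1.93 TPM.

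Since the same reads give both values, the gene counts of the 20 were set beside counts taken per length (effective lengths entered as offsets in DESeq2). With plain counts, 13 of the 20 genes had no overlap between OHT and EtOH on Day 2 and 18 on Day 4, where 46.5% and 63.4% of all genes compared had none. Per length, 10 of the 20 had no overlap on Day 2 and 12 on Day 4. The share of all genes without overlap per length was not computed, so these numbers have no background to be read against. Taking lengths into account changed the sign of the log2 fold change in 7 genes on Day 2 (*Snhg20*, *Cops5*, *Eed*, *Kif23*, *Hcfc2*, *Platr21* and *Lrp8os2*) and in 5 on Day 4 (*Eed*, *Kif23*, *Hcfc2*, *Dop1b* and *Platr21*). Many of these values lay within their SE of 0, such as *Lrp8os2* on Day 2 (0.05 ± 0.16 by count and -0.10 ± 0.18 per length). The share of all genes that changed sign was not computed. *Cops5* had a log2 fold change of -0.18 ± 0.04 by count and 0.02 ± 0.04 per length on Day 2, and of -0.26 ± 0.04 and -0.05 ± 0.04 on Day 4 (SE, n = 3). For *Oxr1* the values were -1.05 ± 0.06 by count and -0.57 ± 0.07 per length on Day 2, and -1.48 ± 0.05 and -0.93 ± 0.06 on Day 4 (SE, n = 3). *Raly* was less reduced per length too, at -0.34 ± 0.04 and -0.39 ± 0.04 against -0.58 ± 0.04 and -0.64 ± 0.03 by count.

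The direction in which a gene moved between the scales was fixed by the rule, since the length ratio that chose the gene is what the offset takes out, and only the sizes are given here. *Cdipt* went from -1.21 ± 0.09 by count to -1.42 ± 0.10 per length on Day 2, and from -1.55 ± 0.08 to -1.83 ± 0.09 on Day 4 (SE, n = 3). *Mrps11* went from -0.36 ± 0.07 to -0.58 ± 0.07 on Day 2 and from -0.49 ± 0.07 to -0.68 ± 0.07 on Day 4. *Paxip1* reached 1.00 ± 0.07 on Day 2 against 0.71 ± 0.05 by count, and *Cwc27* reached 1.08 ± 0.06 on Day 4 against 0.84 ± 0.05. Among unbound genes, *Wdr45* was higher on both scales, by 0.56 ± 0.08 by count and 0.77 ± 0.09 per length on Day 4. *Syne1* was lower on both, by -0.37 ± 0.09 by count and -0.72 ± 0.11 per length on Day 4.

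**Figure D5:**
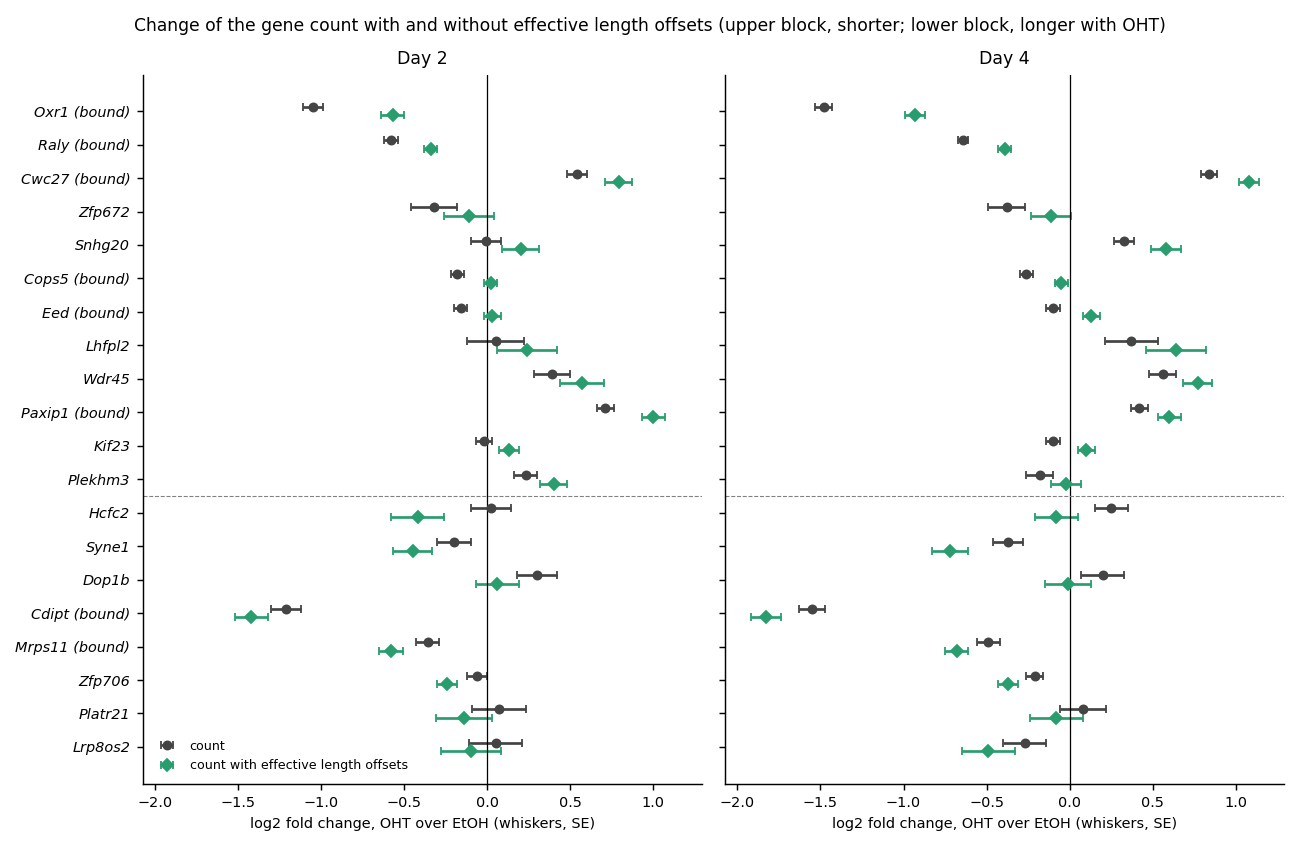
Log2 fold change, OHT over EtOH, of each of the 20 genes by count (circles) and by count with effective length offsets (diamonds), with SE, on Day 2 and Day 4. Diamonds lie to the right of circles in the 12 genes with shorter transcripts (upper block) and to the left in the 8 with longer ones (lower block), as the choice of the genes by length ratio fixes.

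The days were also compared within each treatment, a contrast that the rule did not use. The lengths of the same 12 libraries had served to choose the genes, so this comparison is not independent of that choice. For this, limma was fitted to the log2 effective lengths of all 10944 genes over the 12 libraries, with Benjamini-Hochberg adjustment. Between Day 2 and Day 4 with EtOH, 1 of the 20 genes passed (adjusted p under 0.05), where 0.612% of all genes did. This was *Plekhm3*, which was longer on Day 4 by a log2 difference of 0.28 ± 0.046 (SE; limma, adjusted p = 0.0425). The call was lost when any of the 6 EtOH libraries was left out (limma, adjusted p from 0.0606 to 0.132), and also with a replicate block (0.0584) or a minimum count of 20 (0.0529). With OHT, 2 of the 20 passed, where 3.62% of all genes did. *Plekhm3* was again longer on Day 4, by 0.28 ± 0.046 (SE; limma, adjusted p = 0.0218), and *Platr21* was shorter, by -0.16 ± 0.035 (SE; limma, adjusted p = 0.0481). The *Platr21* call was lost whichever of the 6 OHT libraries was left out, and that of *Plekhm3* without replicate 1 or 2 of Day 2 OHT (adjusted p of 0.0548 and 0.0608) or replicate 1 or 3 of Day 4 OHT (0.0635 and 0.0645). *Zfp672* had a larger difference, 0.35 ± 0.072 with EtOH and 0.29 ± 0.072 with OHT, that did not pass (limma, adjusted p of 0.0806 and 0.0661). After each library was centred, 5 of the 20 and 3126 of all 10944 genes passed with OHT. The log2 medians taken out were 11.1478 to 11.1507 in Day 2 OHT and 11.1655 to 11.1708 in Day 4 OHT libraries. These differ by more than the median log2 difference over all genes before centring, 0.003, so the calls after centring depend on that step. *Zfp672* (limma, adjusted p = 0.0173) and *Dop1b* (0.0262) were among the 5. None of the 8 bound genes passed in either comparison, although with OHT *Paxip1* passed under a replicate block (adjusted p = 0.0118) and *Eed* after each library was centred on its median length (limma, adjusted p = 0.0117). Their log2 differences between the days lay between -0.05 and 0.03 with EtOH and between -0.11 and 0.13 with OHT. At the same thresholds limma called 9 of all genes (0.0822%) for OHT against EtOH on Day 2 and 78 (0.713%) on Day 4, from the contrast that the rule used.

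Counts of the 20 genes were also compared between the days with EtOH alone. With DESeq2, 7 genes were higher on Day 4 and 1 was lower, where 20.6% of all genes tested were higher and 20.5% lower (41.1% in all). On the log2 scale *Zfp672* rose by 0.83 ± 0.12 (SE; DESeq2, adjusted p = 3.03e-11), *Wdr45* by 0.76 ± 0.10 (adjusted p = 3.14e-13) and *Lrp8os2* by 0.54 ± 0.15 (adjusted p = 0.00136). *Eed* rose by 0.36 ± 0.05, *Zfp706* by 0.23 ± 0.06, *Cdipt* by 0.20 ± 0.07 and *Oxr1* by 0.15 ± 0.05. *Kif23* fell by 0.31 on this scale (SE 0.04; DESeq2, adjusted p = 1.48e-12). With the replicate number as a block *Cdipt* no longer passed (DESeq2, adjusted p = 0.0776 against 0.015), nor did it with length offsets (0.121) or without replicate 1 or 3 of Day 2 EtOH (0.108 and 0.0808) or replicate 1 of Day 4 EtOH (0.0971).

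Genes whose products shape transcripts were examined as a group of 147 in 5 lists, none of which held any of the 20 genes. On Day 2, DESeq2 called 12 of them higher with OHT and 39 lower, where 9.17% and 10.6% of all genes tested were called (19.8% in all). On Day 4 it called 26 higher and 49 lower, against 23.5% and 21.7% (45.1% in all). List medians of the log2 fold change ran from -0.075 to -0.0066 on Day 2, with -0.028 over all genes tested, and from -0.093 to 0.0048 on Day 4, with 0.0063. The Day 2 numbers moved with single libraries, to 7 higher and 21 lower without replicate 1 of Day 2 EtOH, to 7 higher without replicate 2 of Day 2 EtOH or replicate 3 of Day 2 OHT, and to 19 higher without replicate 3 of Day 2 EtOH. Of 43 core spliceosome genes, 1 rose and 19 fell on Day 4, the lowest list median of that day. *Sf3a1*, a subunit of the U2 snRNP, fell by 0.41 (SE 0.03; DESeq2, adjusted p = 4.27e-33), *Snrpa1* fell by 0.43 (SE 0.04; adjusted p = 8.52e-28) and *Snrnp70*, of the U1 snRNP, fell by 0.24 (SE 0.03; adjusted p = 1.49e-15). Of 25 cleavage and polyadenylation genes, 4 rose and 8 fell on Day 4. The bound gene *Cpsf2*, a subunit of the cleavage and polyadenylation specificity factor, fell by 0.91 on Day 2 (SE 0.05; adjusted p = 5.38e-83) and by 1.01 on Day 4 (SE 0.04; adjusted p = 6.75e-109). The unbound *Sympk* and *Cpsf1*, which encode other proteins of the cleavage machinery, rose on Day 4 by 0.33 ± 0.04 and 0.32 ± 0.04 (SE; DESeq2, adjusted p of 1.25e-17 and 9.88e-15), and were at -0.02 and 0.01 on Day 2.

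Splicing regulators called on Day 2 were mostly lower with OHT, and those called on Day 4 went in both directions. Over all genes tested, DESeq2 called 9.17% higher and 10.6% lower on Day 2, and 23.5% and 21.7% on Day 4. Of 22 SR and other splicing activators, 2 rose and 8 fell on Day 2, and 5 rose and 3 fell on Day 4. *Srsf5*, an SR protein, was lower on Day 2 by -0.19 ± 0.04 (SE; DESeq2, adjusted p = 5.53e-05) and higher on Day 4 by 0.19 ± 0.03 (adjusted p = 5.27e-07). *Srrm1* was higher on Day 2 by 0.45 ± 0.16 (DESeq2, adjusted p = 0.0298) and lower on Day 4 by -0.21 ± 0.06 (adjusted p = 0.000947), while *Srsf7* rose on Day 4 by 0.13 ± 0.04 (adjusted p = 0.00152). Of 38 hnRNP and other splicing regulators, 2 rose and 10 fell on Day 2, and 11 rose and 12 fell on Day 4. *Esrp1*, an epithelial splicing regulator, was lower on both days, by -0.43 ± 0.08 (SE; DESeq2, adjusted p = 5.45e-06) and -0.84 ± 0.11 (adjusted p = 6.19e-14). *Hnrnpdl* and *Hnrnpa0*, of the hnRNP family, each rose by 0.27 on Day 4 (SE 0.03 and 0.04; DESeq2, adjusted p of 4.4e-15 and 4.81e-13), and *Hnrnpa0* had been lower on Day 2 by -0.27 ± 0.05 (adjusted p = 2.32e-07). Of 19 genes of nonsense-mediated decay and the exon junction complex, 3 rose and 6 fell on Day 2, and 5 rose and 7 fell on Day 4. *Smg6*, the endonuclease of this decay pathway, rose by 0.24 on both days (SE 0.05 and 0.04; DESeq2, adjusted p of 5.28e-05 and 1.52e-07). *Eif4a3*, the RNA helicase of the exon junction complex, was lower by -0.14 ± 0.04 and -0.18 ± 0.03 (DESeq2, adjusted p of 0.00473 and 9.96e-08). *Gspt1*, a translation release factor, was lower on Day 4 by -0.33 ± 0.04 (DESeq2, adjusted p = 2.05e-12) and passed no test on Day 2 (0.06 ± 0.05, adjusted p = 0.417).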

How the data were processed

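RNA-seq libraries of 4 groups of mESCs (12 libraries) were assigned by sample title. The authors mapped reads with STAR (version 2.6.0c) to GRCm38.p6 and quantified GENCODE vM18 genes with RSEM. The deposited expected counts are not normalised and were rounded before testing. The deposited TPM values are scaled per library and were used as levels. The deposited lengths and posterior SDs come from the same files. The authors' tables of fold changes were not used. The genes and lists were chosen with earlier results of these data known. Lengths were tested with limma (version 3.58.1), and counts with DESeq2 (version 1.42.0; the submitters' processing notes name version 1.22.2) on plain rounded counts, called at adjusted p under 0.05 and a mean normalised count above 100, over all genes. Size factors were fitted per contrast. Coordinates and transcripts are from GENCODE vM21. All 20 genes were named, with up to 3 genes per list by Day 4 adjusted p. Both fits were tested on simulated data. Deviations of same-numbered EtOH libraries of the 2 days had correlations of 0.251, 0.103 and 0.119 in counts. There the block was read as a pairing, though the labels do not say what a number marks. The day calls in counts are from the fit without the block. It called 8 of the 20 genes and 4751 of all genes, against 7 and 3754 with the block. Alternatives were edgeR (version 4.0.16), TMM factors, length offsets, other minima and single libraries left out. Reads were PCR copies without molecular identifiers, so the spread between libraries is the error given.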

Additional observations from a re-analysis of the deposited data

Results flagged for a closer look

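For *Plekhm3* the normalised count moved in opposite directions on the 2 days, with every library of a treatment on one side. It was 840, 869 and 934 with EtOH and 1013, 1011 and 1076 with OHT on Day 2, a log2 fold change of 0.23. On Day 4 it was 883, 1021 and 978 with EtOH and 875, 804 and 864 with OHT, a log2 fold change of -0.18. With effective lengths as offsets the log2 fold change was 0.40 ± 0.08 on Day 2 and -0.02 ± 0.09 on Day 4 (SE, n = 3), where the groups overlapped, so that the opposite directions were not seen per length. The difference between the days was not tested.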

How the results depend on the processing

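The number of genes meeting the rule was 42 with a threshold of 0.10, which kept all 20, and 9 with 0.20. It was 22 to 29 when 1 library was left out, with at least 16 of the 20 kept, and 16 with the full length in place of the effective length. The 360 recomputed length ratios of the 20 genes all kept their sign. With length offsets the count fold change of genes without overlap reversed in *Cops5* (0.015) and *Eed* (0.027) on Day 2 and in *Kif23* (0.096), *Hcfc2* (-0.081) and *Dop1b* (-0.011) on Day 4. For the day difference in length with EtOH, genes of the 20 passing went from 1 to 0 with the replicate block, with a minimum of 20 and with any library left out. All genes passing went from 67 to 45 with the block, 65 with a minimum of 20 and 28 to 45 with a library left out. With OHT, 5 of the 20 passed after centring and 1 with a minimum of 20, and 0 to 1 with a library left out. All genes passing went from 396 to 3126 after centring, 205 with the replicate block, and 90 to 205 with a library left out. For OHT against EtOH, length calls went from 9 to 4 with the replicate block and 2 to 13 with a library left out on Day 2, and from 78 to 48 and 30 to 53 on Day 4. Day 2 count calls went from 2306 to 1317 with the block and 1201 to 2174 with a library left out. With a library left out, list genes on Day 2 went from 12 to between 7 and 19 called higher and from 39 to between 21 and 37 lower (18 and 41 with edgeR). The cause of these moves was not tested. Replicate numbers did not pair the samples in lengths, with correlations of -0.055 to 0.048, nor in counts for OHT against EtOH (-0.108 to 0.115). Group sizes of 3 and annotated rather than measured transcripts limit these values. The files used here give a mean length per gene and not the share of each transcript, save in *Platr21*.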
